A study of Homo sapiens with 4 samples.

Results

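MYC and 8 partners of the MAX network were followed in MelJuSo, an established human skin melanoma line, 1 day after treatment with topoisomerase II drugs. The 9 members were MYC, MAX, MXD1, MXD3, MXD4, MXI1, MNT, MGA and MLX, found by gene symbol among the annotated probes of an Illumina expression beadchip. They are 9 of 10077 genes with a probe detected on at least 1 array. The set was chosen by its biology after earlier results of these data had shown MYC among the lowest genes on the doxorubicin array, so that difference is given as a description. The study has 4 arrays of 1 group each: untreated cells, cells given doxorubicin at 9 µM, cells given aclarubicin at 10 µM, and cells given aclarubicin and etoposide, each at 10 µM, called the combination here. Drugs were left on for 2 h and washed off, and RNA was taken 1 day later. For the untreated dish no times are given in the labels, nor whether the paired drugs went on together. Each group is 1 sample of 1 line on 1 array, so there is no replicate spread, no test is possible, and each difference compares arrays. The doxorubicin and aclarubicin doses differ, so their values are given side by side, each against untreated cells, and no difference between the drugs was computed.

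The MAX network is a family of basic helix-loop-helix leucine zipper proteins that bind DNA as dimers at the E-box CACGTG. MYC pairs with MAX to activate genes of growth, ribosome building and nucleotide synthesis, whereas the MXD proteins, MXI1 and MNT pair with MAX and recruit the SIN3 corepressor to the same sites. MGA, the largest partner, joins MAX to a Polycomb repressive complex, and MLX is a MAX-like hub that pairs with MondoA or ChREBP and with some MXD proteins. MYC messenger RNA and protein are both short-lived, and MYC is a well-known oncogene, in melanoma as in other cancers.

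The E-box was looked for in the 250 bases before the annotated start of each member, because every dimer of the network can recognise it. RefSeq windows (GRCh38.p14) were held for 8 of the 9 members, not for MYC, and 3 of the 8 carried CACGTG, a motif that reads the same on both strands. The MXD4 window is shown whole, since MXD4 differed most on the doxorubicin array among the repressor genes, and its E-box begins 238 bases before the start. It lies at chr4:2262110-2262359 on the minus strand. The MXD1 window, chr2:69914859-69915108 on the plus strand, is shown because MXD1 lay furthest above untreated on both aclarubicin arrays, and these letters are not in it. The stretches around the E-box of MNT, chr17:2401228-2401273 on the minus strand, and of MLX, chr17:42567030-42567075 on the plus strand, complete the set, with the motif 193 and 50 bases before the start. Sequences run 5′ to 3′ and capitals mark CACGTG.
MXD4: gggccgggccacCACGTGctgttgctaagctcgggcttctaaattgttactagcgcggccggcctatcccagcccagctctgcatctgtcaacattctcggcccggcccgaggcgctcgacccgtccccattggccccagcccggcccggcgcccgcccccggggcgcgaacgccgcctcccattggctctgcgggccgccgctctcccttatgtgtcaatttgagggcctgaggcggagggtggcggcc
MXD1: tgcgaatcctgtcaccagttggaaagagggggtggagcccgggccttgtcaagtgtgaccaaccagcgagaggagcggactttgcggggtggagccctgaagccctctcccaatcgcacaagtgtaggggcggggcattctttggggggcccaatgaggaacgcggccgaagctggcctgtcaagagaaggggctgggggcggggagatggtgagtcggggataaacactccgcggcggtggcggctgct
MNT: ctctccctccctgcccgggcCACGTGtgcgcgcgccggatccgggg
MLX: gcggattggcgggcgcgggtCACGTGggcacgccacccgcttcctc

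For comparison, 2228 of 35116 windows of that length in the table held the motif (6.34%). Among genes detected on these arrays, counted by the first listed window of each gene, it was 772 of 8317 (9.28%). Some genes have several windows in the table, and MAX, MXI1 and MGA had none with the motif in any of theirs. A match is a description of the sequence and does not show that a network protein was bound in these cells.

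The arrays differed in how much they detected. A probe counts as detected at a detection p-value under 0.01, and 14773 probes passed with doxorubicin, 13521 untreated, 9864 with aclarubicin and 9128 with the combination. Levels below are log2 values after background correction and quantile normalization, which gives all arrays one distribution. Without scaling between arrays the median gene lay 0.06 above untreated with doxorubicin, fell by 0.66 with aclarubicin and fell by 0.92 with the combination. A change of scaling therefore moves values on the aclarubicin arrays, and the raw signal of each member is given so that both can be read. A technical error was taken from 1066 genes with exactly 2 probes detected on all arrays. It is the SD of the gap between the differences of the 2 probes, divided by the square root of 2. This error of a single probe is called the probe disagreement below. It was 0.33 log2 units for doxorubicin, 0.46 for aclarubicin, 0.51 for the combination and 0.17 for the combination against aclarubicin. Of 8 melanocytic markers, SOX10, TYRP1, MITF and PMEL were detected untreated, MLANA, TYR and S100B were not, and no DCT probe was named. The summed signal of these markers ran from 2228 with doxorubicin to 4375 untreated, and they did not move together. SOX10 went from 1669 untreated to 1161 with doxorubicin, 120 with aclarubicin and 90.8 with the combination. In that order TYRP1 went from 2111 to 440, 2803 and 1823, and PMEL from 155 to 308, 164 and 133. The brightest MITF probe went from 306 to 188, 49.9 and 63.5, and no MITF probe was detected with the combination. Of 10 markers of other cell types, 1 was detected untreated (PECAM1), 3 with doxorubicin, 2 with aclarubicin and 2 with the combination. Their summed signal ran from 522 untreated to 873 with aclarubicin, CD14 giving 390 of the latter and 57.2 untreated. VWF, not detected untreated at 48.2, was detected with doxorubicin at 238. The part of these shifts in the members' values was not tested, and fewer cells of a type and less RNA per cell cannot be told apart in a bulk sample.

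The members have 18 probes, of which 12 were detected on at least 1 array and 6 on none. All 9 genes were detected untreated and with doxorubicin, 6 with aclarubicin and 5 with the combination. MNT, MGA and MLX were the genes lost on both arrays with aclarubicin, and MXI1 was lost as well with the combination.

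**Figure D1:**
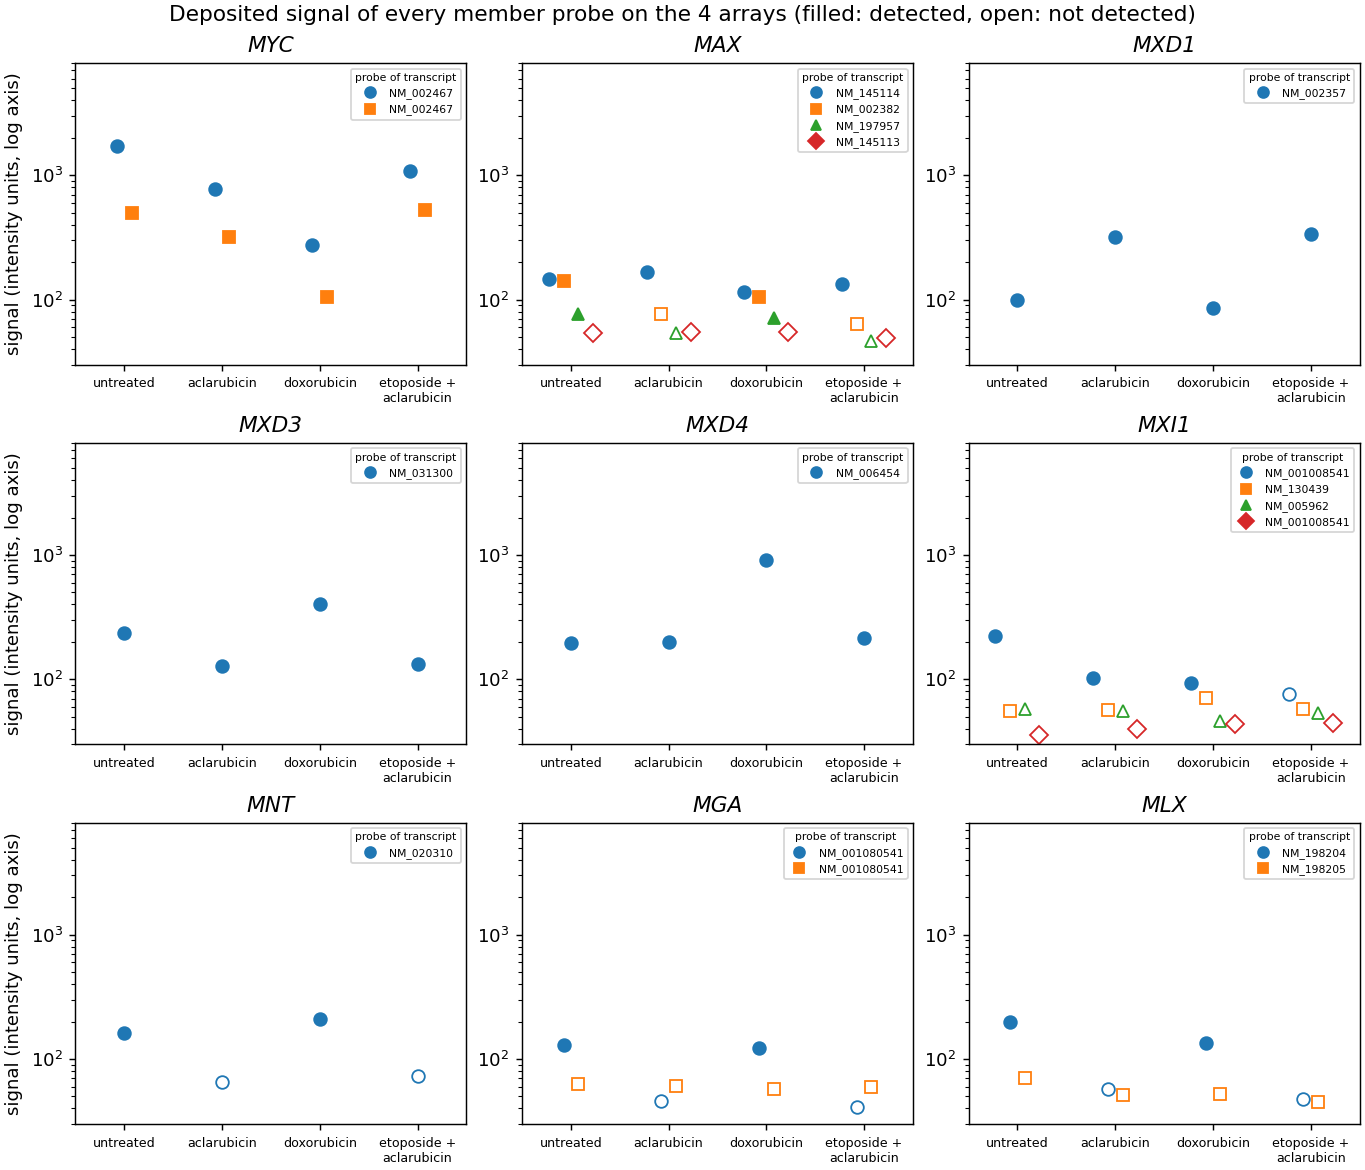
Deposited signal (vertical log axis, intensity units) of every member probe on the 4 arrays, 1 panel per gene and 1 symbol per probe, named by the transcript it was designed for, with filled symbols detected and open symbols not detected. MYC is lowest with doxorubicin by both probes, MXD4 is highest there at 908, MXD1 is high on both arrays with aclarubicin at 317 and 339, and MNT, MGA and MLX are open on those same arrays.

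MYC itself was lowest on the doxorubicin array. The brighter of its 2 probes (ILMN_1680618) gave a signal of 1721 untreated, 277 with doxorubicin, 773 with aclarubicin and 1085 with the combination. The dimmer probe (ILMN_2110908) gave 501, 105, 316 and 528 in the same order. Both were detected on every array, and by both the doxorubicin signal was under that of each other array. On the normalized scale MYC lay 9.38-fold below untreated with doxorubicin by the brighter probe, a log2 difference of -3.23, and 6.20-fold below by the dimmer one, a difference of -2.63. Across 9 alternatives the brighter probe's difference, or the mean over probes, ran from -3.23 to -2.75 and stayed past 2-fold in each. The looser detection rules among them could not change it.

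With aclarubicin and the combination the direction for MYC rested on the probe and the scaling. The brighter probe differed from untreated by -0.68 with aclarubicin and 0.0046 with the combination, and the dimmer probe by 0.29 and 1.29. The probes thus stood 0.97 and 1.28 log2 units apart, where the median gap between a pair of probes of a gene was 0.30 and 0.33. Without scaling the brighter probe differed by -1.19 and -0.68, and the dimmer one by -0.72 and 0.08. Both probes were below untreated with aclarubicin when unscaled. With the combination after quantile normalization the brighter probe was level with untreated, at 1.003-fold, and the dimmer one was above it. Where aclarubicin was present in both samples and etoposide was the addition, MYC was 1.61-fold higher with the combination by the brighter probe and 1.99-fold by the dimmer one, both higher than with aclarubicin alone and both under 2-fold. Unscaled, these differences were 0.51 and 0.80.

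MAX, the shared partner, has 4 probes for different transcripts. The probe of NM_145114 (ILMN_1802457) gave a signal of 146 untreated, 114 with doxorubicin, 166 with aclarubicin and 134 with the combination, and was detected on each array. The probe of NM_002382 (ILMN_2363426) gave 140, 105, 76.0 and 63.0, and was not detected on the arrays with aclarubicin. A probe of NM_197957 was likewise detected on those arrays alone that had no aclarubicin, at 75.8 and 71.1 where it was detected and 53.7 and 46.8 where it was not, and the probe of NM_145113 was detected nowhere. With doxorubicin the first 2 probes differed from untreated by -0.54 and -0.61, and so did not separate. With aclarubicin they differed by 1.27 and -0.29, a gap of 1.56, and with the combination by 1.22 and -0.73, a gap of 1.95, the lower value of each pair being measured on an array that did not detect the probe. The NM_145114 probe stood above the NM_002382 probe without scaling too, but its position against 0 changed. Unscaled, the NM_145114 probe differed by 0.22 with aclarubicin and -0.16 with the combination, so its 2-fold excess was seen only relative to other genes, and the NM_002382 probe differed by -1.27 and -1.74.

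MXD1, a repressor known to be induced as many cell types leave the cell cycle and differentiate, lay furthest above untreated on both arrays with aclarubicin. Its probe gave a signal of 98.8 untreated, 85.4 with doxorubicin, 317 with aclarubicin and 339 with the combination. The signal was higher on each of the arrays with aclarubicin than on the other 2, each a single array of a different treatment. MXD1 was 7.21-fold above untreated with aclarubicin (log2 difference 2.85) and 9.44-fold with the combination (3.24), and lay -0.39 from untreated with doxorubicin, close to the probe disagreement. Across the 9 alternatives the differences ran from 2.05 to 3.40 and from 2.18 to 3.74, all past 2-fold. The looser detection rules and the mean over probes could not change them, as MXD1 has 1 probe. Adding etoposide moved MXD1 by 0.39 against aclarubicin alone, or by 0.11 unscaled.

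MXD4, a repressor of the same subfamily that is linked to exit from proliferation, was highest on the doxorubicin array. Its signal was 197 untreated, 908 with doxorubicin, 198 with aclarubicin and 214 with the combination. Only the doxorubicin array stood away from the rest. The normalized difference from untreated was 2.57 with doxorubicin, a 5.95-fold excess that ran from 2.23 to 2.62 over the alternatives. It was 1.11 with aclarubicin and 1.53 with the combination, but 0.0079 and 0.14 unscaled, and -0.017 with aclarubicin under median scaling, so MXD4 exceeded untreated on those arrays only relative to other genes.

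MXD3, the member of the subfamily found in S phase of dividing cells in the mouse, differed less. Its signal was 236 untreated, 406 with doxorubicin, 127 with aclarubicin and 132 with the combination. The doxorubicin value lay above untreated and both aclarubicin values below it. The normalized differences were 0.83, 0.08 and 0.46 in that order of treatments, none past 2-fold, and those unscaled were 0.87, -1.09 and -1.02. The sign for the arrays with aclarubicin thus turned with the scaling.

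MXI1, also called MXD2 and a repressor of MYC activity, had a lower signal than untreated on all treated arrays by its only detected probe, ILMN_1794074. That probe gave a signal of 224 untreated, 93.6 with doxorubicin, 102 with aclarubicin and 76.0, not detected, with the combination. The untreated array was above the others. With doxorubicin the difference was -1.50, a 2.82-fold deficit, and -1.60 unscaled. With aclarubicin it was -0.27, under the probe disagreement, or -1.44 unscaled, and with the combination MXI1 was at least 1.45-fold lower. The other 3 MXI1 probes were detected on no array, with signals between 35.6 and 70.0.

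MNT, the broadly expressed repressor that opposes MYC at shared sites, had a signal of 162 untreated, 211 with doxorubicin, 65.4 with aclarubicin and 72.5 with the combination. It was detected on the first 2 arrays only. The doxorubicin difference was 0.28, under the probe disagreement, and the deficits with aclarubicin and the combination are bounds of at least 1.22-fold and 1.03-fold. Unscaled, the measured differences were -1.91 and -1.65.

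MLX gave a signal of 197 untreated, 136 with doxorubicin, 57.8 with aclarubicin and 47.7 with the combination by its detected probe, and was not detected on the last 2 arrays. It was 1.66-fold below untreated with doxorubicin, and at least 1.497-fold and 1.27-fold lower with aclarubicin and the combination. The measured differences were -1.83 and -2.27, and -2.55 and -2.88 unscaled. A second MLX probe was detected on no array.

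MGA, the scaffold of the PRC1.6 repressor, was detected on the same arrays as MNT and MLX. Its detected probe gave a signal of 129 untreated, 122 with doxorubicin, 45.8 with aclarubicin and 41.3 with the combination. The difference with doxorubicin was -0.25. On the arrays with aclarubicin MGA was not detected, and since its untreated level lay below the lowest level detected there, no fold is given. The second MGA probe was detected nowhere and lay between 57.4 and 62.5.

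**Figure D2:**
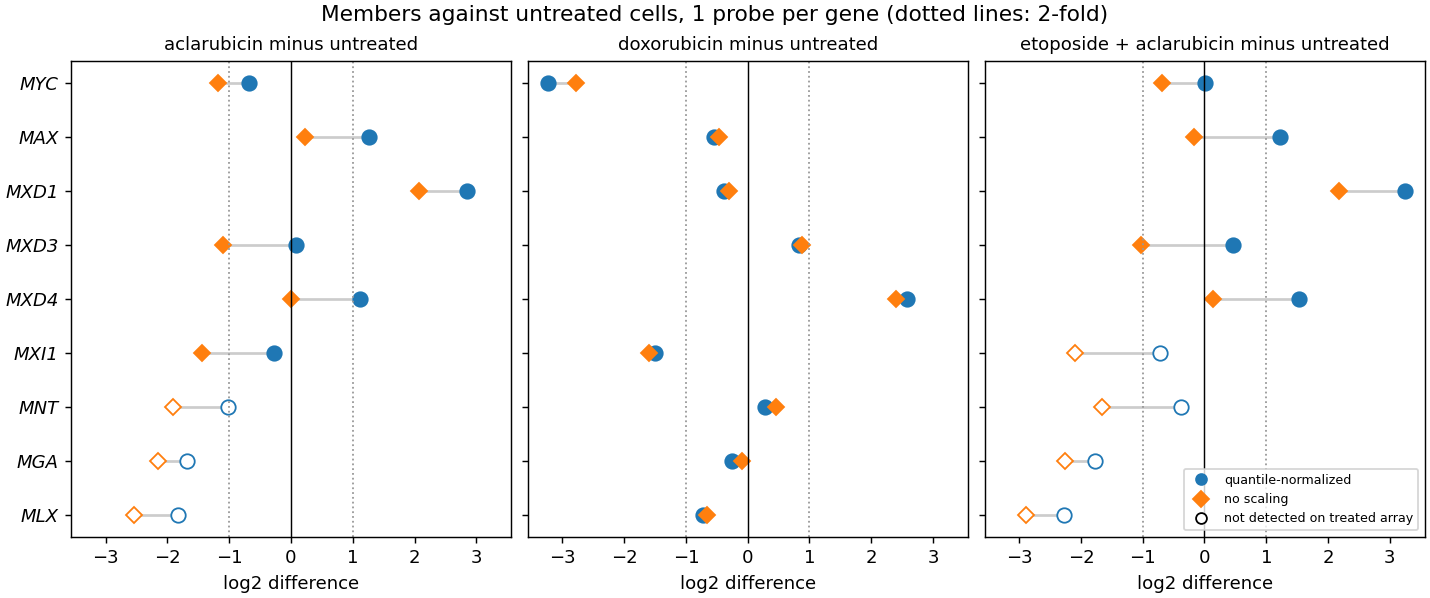
Log2 difference from untreated (horizontal axis) of the probe that represents each member, in 3 panels for the 3 treatments, with circles after quantile normalization, diamonds without scaling, open symbols where the treated array did not detect the probe, and dotted lines at 2-fold. With doxorubicin the circles and diamonds lie close together, MYC at -3.23 and MXD4 at 2.57, whereas on the arrays with aclarubicin each diamond lies to the left of its circle and MXD1 alone keeps both beyond 2-fold higher.

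Set against all genes, the members' counts were as follows, with genes detected on 1 of the 2 arrays called only where the bound passed 2-fold. With doxorubicin, 1 of 9 members was at least 2-fold higher (MXD4) and 2 were lower (MYC and MXI1), where 11.5% of all genes were higher and 9.96% lower. With aclarubicin, 3 were higher (MAX, MXD1 and MXD4) and 0 lower, where 15.0% of all genes were higher and 15.4% lower. With the combination the same 3 were higher and 0 lower, where 17.4% and 15.5% of genes were. Unscaled, 1 member was higher and 5 lower with aclarubicin, and 1 higher and 4 lower with the combination, where 2.28% of genes were higher and 34.1% lower with aclarubicin and 2.31% and 40.4% with the combination. The unscaled count of lower members with the combination is thus near the share of all genes. Called by measured differences in place of bounds, a choice made after seeing the data, 3 members were higher on each of these arrays, 3 lower with aclarubicin and 2 lower with the combination. By that rule 15.6% of genes were higher and 22.3% lower with aclarubicin, and 18.5% and 25.3% with the combination, so the lower count with the combination is near the share of all genes. Between the combination and aclarubicin alone 0 of 9 members passed 2-fold, where 0.308% of genes were higher and 0.655% lower. These comparisons share the untreated or the aclarubicin array. The members' median difference was -0.39 with doxorubicin, -0.27 with aclarubicin and 0.0046 with the combination, beside -0.0032, -0.04 and -0.07 over all genes.

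The cofactors of the repressor members were followed through a list of the SIN3 corepressor, of which 12 of 15 genes were measured. SAP18, a SIN3-associated subunit, was above untreated with each treatment, by 1.09 with doxorubicin, 1.84 with aclarubicin and 2.22 with the combination. Its signal was 145 untreated and 306, 234 and 250 in that order, so it was higher on the raw scale too. With doxorubicin SAP18 was the 1 gene past 2-fold, and 0 were lower, beside 11.5% of all genes higher and 9.96% lower. ARID4B was 0.74 above untreated, and SIN3A itself differed by -0.60 and ING1 by -0.47. SIN3A, the scaffold of the complex, was not detected with aclarubicin or the combination, where it was at least 6.27-fold and 5.31-fold lower, values singled out after they were seen. With aclarubicin 1 gene was higher and 3 lower, with SAP30 at -2.83 and ARID4B at -1.29. Unscaled, 0 genes were higher and 6 of 12 lower on each array with aclarubicin, beside 34.1% of all genes lower with aclarubicin and 40.4% with the combination. With the combination 2 were higher and 4 lower, with RBBP4 at 1.15, ARID4B at -1.16 and the deacetylase HDAC2 at -1.05. After normalization 15.0% of all genes were higher and 15.4% lower with aclarubicin, and 17.4% and 15.5% with the combination. RBBP4 had a lower signal than untreated, 191 against 226, so its excess is relative to other genes.

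Partners of MGA in the PRC1.6 complex had 8 of 10 genes measured. With doxorubicin 0 were higher and 1 was lower, CBX3, a heterochromatin protein, at -1.48. CBX3 is also counted as lower in the list of MYC-activated genes. With aclarubicin 0 were higher and 4 lower, the defining subunit PCGF6 at -1.86 and the ubiquitin ligase RING1 at -1.42, while TFDP1 differed by 0.16. With the combination 3 were lower, PCGF6 at -1.87 and L3MBTL2 at -1.43. Among all genes 11.5% were higher and 9.96% lower with doxorubicin, 15.0% and 15.4% with aclarubicin, and 17.4% and 15.5% with the combination. The list medians were -0.10, -0.82 and -0.85 for doxorubicin, aclarubicin and the combination. Unscaled, 6 of 8 were lower with aclarubicin and 7 with the combination, against the unscaled 34.1% and 40.4% of all genes. MGA and PCGF6 thus had low values on the same arrays, which are also those that detected fewer probes.

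Coactivators of MYC had 16 of 16 genes measured. KAT2A, the histone acetyltransferase GCN5, was above untreated by 1.33 with doxorubicin, 1.00 with aclarubicin and 1.10 with the combination. Its signal was 542 untreated and 1138, 599 and 513 in that order, so only the doxorubicin excess was large on the raw scale. TRRAP, the scaffold that brings acetyltransferases to MYC, differed by -2.29 with aclarubicin, its signal being 133 against 1017 untreated, and PAF1 by -1.25. With doxorubicin SKP2, a ubiquitin ligase subunit that also coactivates MYC, differed by -1.24 and HCFC1 by -1.04. SKP2 is also in the list of turnover genes and is counted as lower in both. With the combination HCFC1 differed by -1.26 and EP400 by -1.03. In all, 1 was higher and 2 lower with doxorubicin, 1 and 4 with aclarubicin, and 2 and 3 with the combination. Of all genes 11.5% were higher and 9.96% lower with doxorubicin, 15.0% and 15.4% with aclarubicin, and 17.4% and 15.5% with the combination, so for 16 genes these counts lie near the background. Unscaled, 0 were higher and 9 of 16 lower on each array with aclarubicin, where 34.1% and 40.4% of all genes were lower.

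Regulators of MYC protein turnover had 13 of 16 genes measured. FBXW7, the ubiquitin ligase subunit that marks phosphorylated MYC for destruction, was 2.69-fold above untreated with doxorubicin (1.43), its signal being 539 against 224. STUB1, another ligase, differed by -2.18 there and AURKA, a mitotic kinase that can stabilise MYC family proteins, by -1.52. That array had 1 gene of the list higher and 6 lower, with a median of -0.82. There 11.5% of all genes were higher and 9.96% lower. With aclarubicin 0 were higher and 5 lower, AURKA at -2.65 and AXIN1 at -2.32. With the combination 0 were higher and 6 lower, AURKA at -2.77 and CIP2A, an inhibitor of the phosphatase that destabilises MYC, at -1.31. The shares of all genes were 15.0% higher and 15.4% lower with aclarubicin, and 17.4% and 15.5% with the combination. Unscaled, the counts with aclarubicin and the combination were 10 and 11 of 13 lower, beside 34.1% and 40.4% of all genes. The doxorubicin count was unchanged at 1 and 6, beside 13.2% of all genes higher and 8.57% lower.

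Factors of MYC transcription and RNA had 13 of 16 genes measured, and 0 passed 2-fold in either direction with doxorubicin. CCNT1, the cyclin of the elongation kinase P-TEFb, stood at 0.86, CTCF at 0.02, HNRNPK at -0.99 and PUF60 at -0.94. With aclarubicin 1 was higher and 4 lower. CCNT1 differed by -3.09, from a signal of 905 untreated to 82.9, and PUF60, a repressor of MYC transcription, by -2.28. FUBP1, an activator of MYC transcription, differed by 1.18, though its signal of 179 was near the 168 of untreated cells. With the combination 0 were higher and 5 lower, PUF60 at -2.47 and HNRNPD, which binds the MYC message, at -1.45. Across all genes 11.5% were higher and 9.96% lower with doxorubicin, 15.0% and 15.4% with aclarubicin, and 17.4% and 15.5% with the combination. Unscaled, 0 were higher and 7 lower with aclarubicin, and 0 higher and 8 lower with the combination, of 13 genes, beside 34.1% and 40.4% of all genes lower.

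Genes that MYC is known to activate were taken from a list of 70, of which 58 were measured. With doxorubicin, the array with the least MYC, 28 of 58 genes lay past 2-fold on the low side and 0 on the high side, and the median was -0.99, where 9.96% of all genes were lower and 11.5% higher. IPO4, an importin, differed by -2.12 and NIP7, a ribosome assembly factor, by -1.87, while the highest were TMEM97 at 0.51 and SUPV3L1 at 0.33. With aclarubicin 19 were lower and 2 higher (median -0.74), MPHOSPH10 at -2.63 and BYSL at -2.46, both of small ribosomal subunit assembly, against EXOSC5 at 1.15 and IPO4 at 1.09. With the combination 17 were lower and 3 higher (median -0.77), LDHA, lactate dehydrogenase, at -2.86 and the mitochondrial transcription factor TFB2M at -2.59 against WDR74 at 1.44 and EXOSC5 at 1.34. IPO4 was thus among the lowest genes of the list with doxorubicin, at a signal of 196 against 660 untreated, and among the highest with aclarubicin, at 828. Of all genes 15.4% were lower and 15.0% higher with aclarubicin, and 15.5% and 17.4% with the combination. The doxorubicin count was 26 unscaled, with a median of -0.93, where 8.57% of all genes were lower and 13.2% higher. The unscaled counts were 31 lower with aclarubicin and 36 with the combination, with 0 higher on each and medians of -1.28 and -1.61, where 34.1% and 40.4% of all genes were lower and 2.28% and 2.31% higher. Many of these genes serve ribosome assembly, a group already known from earlier results to lie low here, so the list adds no independent direction. Of 56 members of the list with a promoter window, 15 held CACGTG (26.8%), beside 9.28% of detected genes and 6.34% of all windows. The list was chosen as known MYC targets, so this share does not show that MYC acted on them in these cells.

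Genes that MYC is known to repress had 9 of 16 members measured. With doxorubicin 3 were higher and 3 lower, so the list did not lie to 1 side, at a median of -0.48. CDKN1A, the cell cycle inhibitor p21, and GADD45A, a stress sensor, both also direct p53 targets, stood at 5.03 and 3.60. THBS1, the matrix protein thrombospondin, differed by -2.56 and GAS1 by -1.54. With aclarubicin 3 were higher and 1 lower, with GAS1 at 1.04 and GADD45A at 1.03 against THBS1 at -1.13 and KLF6 at -0.76, and the median of 0.49 became -0.23 unscaled. With the combination 4 were higher and 1 lower, with GAS1 at 1.84, GADD45A at 1.68 and THBS1 at -2.37. Over all genes, 11.5% were higher and 9.96% lower with doxorubicin, 15.0% and 15.4% with aclarubicin, and 17.4% and 15.5% with the combination. Unscaled, 0 were higher and 1 lower with aclarubicin and 1 higher and 2 lower with the combination, while with doxorubicin 3 stood on each side. The unscaled shares of all genes were 2.28% higher and 34.1% lower with aclarubicin, and 2.31% and 40.4% with the combination. With doxorubicin they were 13.2% and 8.57%.

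**Figure D3:**
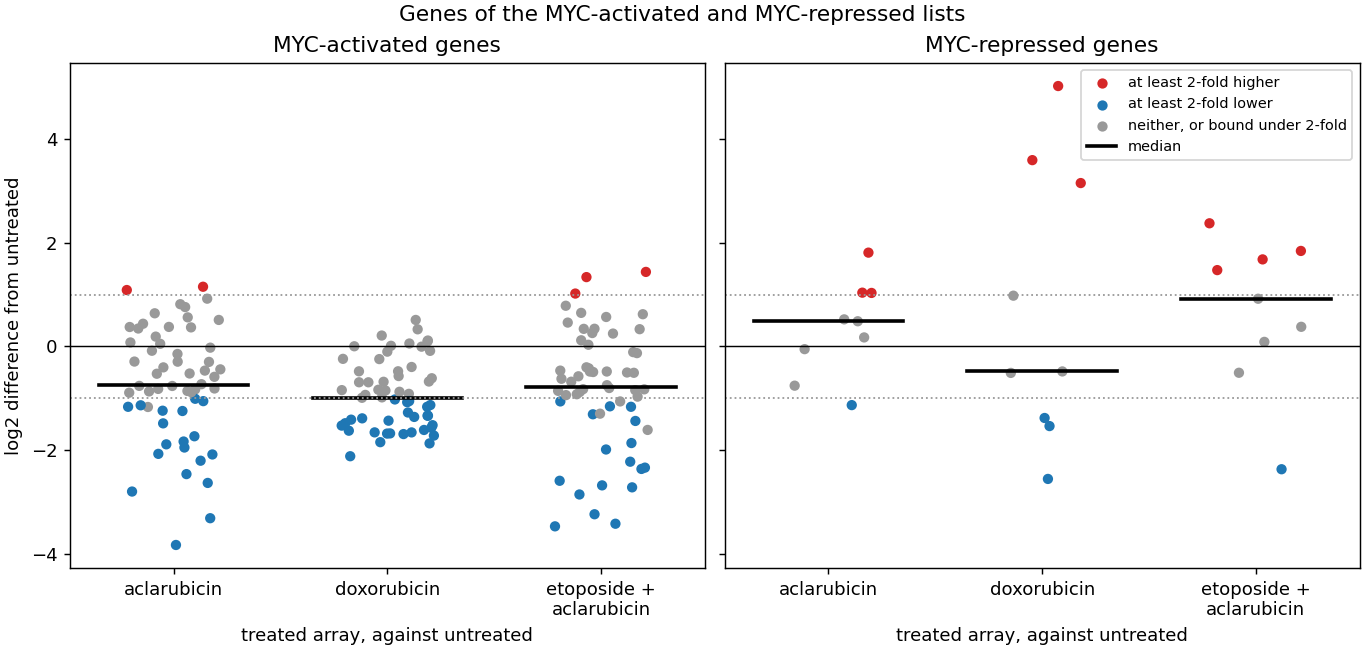
Log2 difference from untreated (vertical axis) of each measured gene of the MYC-activated list (left, 58 genes) and the MYC-repressed list (right, 9 genes) for the 3 treatments, 1 point a gene, coloured by call, with the median as a bar and dotted lines at 2-fold. With doxorubicin no point of the activated list lies above the upper dotted line and 28 are called lower, while the repressed list has 3 called on each side. On that array 11.5% of all genes were higher and 9.96% lower.

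MLX acts with MondoA on a few well-known targets. TXNIP, the thioredoxin-interacting protein that restrains glucose uptake, gave a signal of 249 untreated, 681 with doxorubicin, 806 with aclarubicin and 1063 with the combination. All treated arrays were above untreated, by 1.67, 2.68 and 3.28 log2 units. ARRDC4, a related arrestin gene, differed by 1.62 with doxorubicin, 0.17 with aclarubicin and 0.62 with the combination. Its signal was 200 untreated and 548, 117 and 126 in that order, so on the arrays with aclarubicin its excess is relative to other genes. KLF10 differed by 0.24, 1.01 and 1.70, with signals between 103 and 133 on all arrays. MLX and TXNIP thus stood on opposite sides of untreated on each treated array. On the arrays with aclarubicin MLX was not detected, so its side there rests on a bound. MLXIP, the gene of MondoA, was detected on no array.

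The genes whose pattern over the 4 arrays was most like that of MYC's brighter probe were sought among 6200 genes. These were detected untreated and varied at least 2-fold. The measure was the root mean square distance between log2 levels centred on each gene's mean. The nearest were ATP5MC2, a subunit of mitochondrial ATP synthase (distance 0.26), NTHL1, a base excision repair enzyme (0.26), PFAS, an enzyme of purine synthesis (0.27), the ribosomal protein gene RPS7 (0.31) and MT2A, a metallothionein (0.32). Each was low with doxorubicin, by -2.75, -2.58, -3.26, -3.19 and -2.70 in that order. With aclarubicin their differences lay between -0.49 and 0.21. With 4 arrays, 1 array sets most of this likeness, and the measure is a description.

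**Figure D4:**
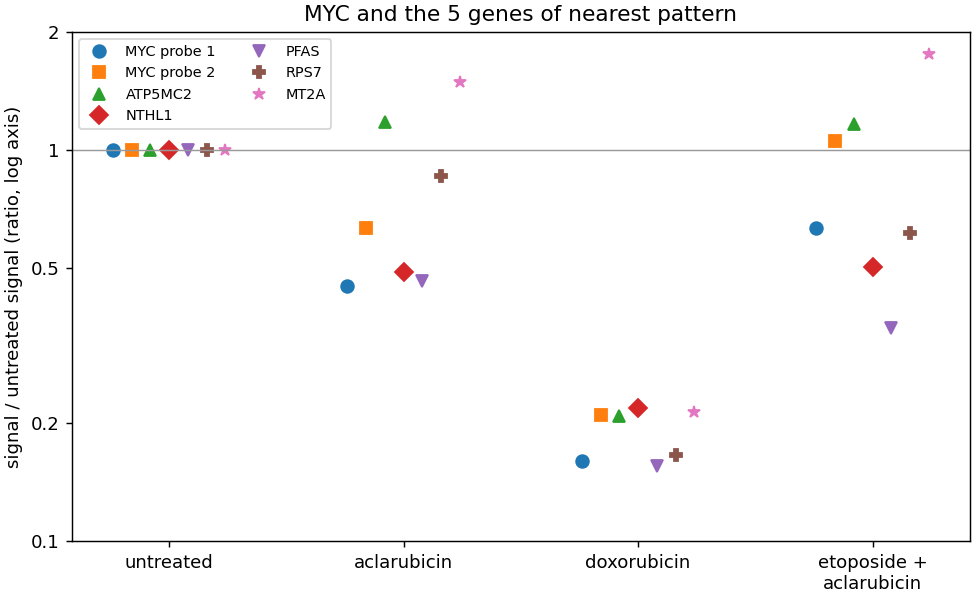
Deposited signal divided by the untreated signal (vertical log axis, ratio) on the 4 arrays for both MYC probes and the 5 genes nearest to the brighter one. All symbols lie lowest with doxorubicin. On the arrays with aclarubicin they spread on both sides of 1, with MT2A above 1 and PFAS under 0.5. MYC's brighter probe is at 0.449 with aclarubicin and 0.631 with the combination, and its dimmer probe at 0.632 and 1.055.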

How the data were processed

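Total RNA of MelJuSo cells was labelled with biotin and hybridised to 1-colour beadchips, per the labels. Each probe has a raw intensity and a detection p-value, both deposited by the authors without normalization per the file headers, and a second table of normalized values that appears to be on a log2 scale. The submitters' processing notes name lumi, with settings not given in the sources used here. Signals were corrected by normexp in limma 3.58.1 (R 4.3.3) with background inferred through the detection p-values, offset 16, then quantile-normalized. Of 48803 probes, 27578 had 1 gene symbol, 13 had more than 1 and 21212 had none here. Of the named probes 27541 matched by Entrez identifier a current gene table (GRCh38.p14, for names). A gene was represented by its detected probe of highest mean level, giving 10077 genes. Where 1 of 2 arrays detected a gene, the fold is a lower bound: the dim value is set to the lowest level detected on that array, or kept if above it, and no fold is given below 1. The threshold was 2-fold, and calling was tested on simulated data. The number of arrays limits the precision.

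Members and gene lists were chosen with earlier results of these data known. Some lists share genes, so their counts are not separate observations. SKP2 is a coactivator and turnover gene, and WDR5 a coactivator and PRC1.6 gene. CBX3 is in the PRC1.6 and MYC-activated lists, and PLK1 in the turnover and MYC-activated lists. From each list the 2 highest and 2 lowest genes detected on both arrays could be named for each comparison with untreated cells. Every member and the 5 genes nearest to MYC's brighter probe were also named. The alternatives covered scaling (median, cyclic loess or none), omission of background correction, the authors' normalized values, an offset of 50, the mean over probes, a detection p-value under 0.05, omission of that filter, cut-offs at 1.5-fold and 3-fold and, added later, measured differences in place of bounds. Calculations used Python 3.11.15, numpy 2.4.6 and pandas 2.3.3.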

Additional observations from a re-analysis of the deposited data

How the results depend on the processing

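MYC with doxorubicin, MXD1 with aclarubicin and the combination, MXD4 with doxorubicin and MXI1 with doxorubicin stayed past 2-fold in the same direction under all 9 alternatives that give a difference. Not all 9 could change these values. The looser detection rules kept the same probes, and the mean over probes left MXD1, MXD4 and MXI1 as they were, with 1 detected probe each. MYC differed from untreated with doxorubicin by -2.78 under median scaling, -2.78 without scaling and -2.75 under cyclic loess. With aclarubicin it differed by -1.21 under median scaling, -1.19 without scaling and -0.19 as the mean over probes, and with the combination by -0.67, -0.68 and 0.65. Against aclarubicin alone the combination gave MYC 0.51 without scaling. MXD4 with aclarubicin turned to -0.017 under median scaling. MAX with the combination turned to -0.15 under median scaling, -0.16 without scaling and -0.11 as the mean over probes. Where 3 members passed 2-fold with aclarubicin, 6 did under median scaling, without scaling, at a detection p-value under 0.05, with no detection filter and by measured differences, and 1 did with an offset of 50 or at 3-fold. With the combination 5 did under median scaling, without scaling, with no detection filter and by measured differences, and 1 at 3-fold. With doxorubicin 5 did at 1.5-fold, and between the combination and aclarubicin 1 did at 1.5-fold. For MYC and the member counts, 60 of 84 alternative values moved by less than the probe disagreement or by no more than 1.5 times. These include settings that could not move the MYC difference. Over all genes with aclarubicin, 1516 higher and 1553 lower (49.4% higher) became 230 and 3437 without scaling (6.27%), and 38.5% under cyclic loess. With the combination 1757 and 1566 (52.9%) became 233 and 4074 (5.41%), and 40.7% under cyclic loess. Between the combination and aclarubicin 31 and 66 (32.0%) became 7 and 335 (2.05%). The cause was not tested. Signal close to background limits MNT, MGA, MLX and most MAX probes, whose differences on the arrays with aclarubicin are bounds or have no fold. MXI1 is limited in the same way, with a bound for the combination, while its difference of -0.27 with aclarubicin was measured.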

Other observations

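The other MYC genes and the MondoA family gave no signal that passed detection. MYCN (2 probes) and MYCL (3 probes) were detected on no array, with signals between 41.6 and 60.3, and neither were MLXIP, which encodes MondoA, and MLXIPL, which encodes ChREBP, with 1 probe each. USF1 and USF2, which bind the same E-box without MAX, were detected on all arrays by their representing probes. The USF1 signal was 159 untreated, 198 with doxorubicin, 120 with aclarubicin and 132 with the combination. The USF2 signal was 399, 414, 322 and 267 in that order. Both lay within 1.16-fold of untreated with doxorubicin after normalization, on the array where MYC was lowest. With the combination USF1 was 2.08-fold above untreated after normalization although its signal was lower.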
